A study of Mus musculus with 2 samples.

Results

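The 20 genes of the cytosolic aminoacyl-tRNA synthetases and 14 genes of the ATF4 stress programme were examined in resting bone marrow-derived macrophages (BMDMs), a primary culture in which marrow cells mature into macrophages. The 34 genes were chosen by symbol from the deposited table of 16463 genes, and all 34 were present in it. Messenger RNA was measured in 2 libraries, 1 per genotype, from mice of the C57BL/6J strain whose age was not stated. The WT library came from mice that carry Lyz2-Cre, which places Cre recombinase under the control of the lysozyme M gene and so directs it to the myeloid lineage. The TKO library came from mice that carry the same Cre, are labelled -/- for the microRNA clusters mir-106a~363 and mir-106b~25, and have flox/flox alleles of the paralogous cluster mir-17~92, so that this cluster is a target of deletion only in cells that express Lyz2-Cre. Both cultures were unstimulated. Each genotype had 1 library, so no difference below has a replicate check, no test was possible, and every interval covers counting error only. The spread between separate cultures was not measured. The libraries held 10877897 estimated counts in WT and 10656431 in TKO.

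Aminoacyl-tRNA synthetases attach each amino acid to its tRNA before translation. When amino acids run short or unfolded protein accumulates, kinases phosphorylate the translation factor eIF2, general translation slows, and the mRNA of the transcription factor ATF4 is translated more. ATF4 then raises transcription of amino acid synthesis enzymes, transporters, many synthetases and further stress factors such as CHOP, the product of Ddit3. Because ATF4 is controlled largely at translation, the level of its mRNA does not report its protein, and neither protein nor phosphorylation was measured here.

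The sites through which ATF4 acts on its targets share a composite C/EBP-ATF element with the core TGATGNAA, and the stretches that hold this core at the start sites of the listed genes are shown to let the element be compared between them. RefSeq promoter windows on GRCm38.p6, which run from 250 bases before to 50 bases after a start, were used for 25 of the 34 genes. The core, searched on both strands, was present in 8 of these 25 genes (32%), against 3.97% of all 32851 windows. The first share is per gene and the second per window. Known targets of ATF4 were among the listed genes by choice, so a higher share was to be expected before these data and is not a result of them. Each line gives the gene strand 5′ to 3′ with the core, or its reverse complement, in capitals and 10 bases on either side.
Asns, chr6:7693215-7693242, minus strand, core starting 23 bases before the start: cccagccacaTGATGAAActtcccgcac
Chac1, chr2:119351039-119351066, plus strand, 193 bases before: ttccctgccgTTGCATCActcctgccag
Nupr1, chr7:126625563-126625590, minus strand, 110 bases before: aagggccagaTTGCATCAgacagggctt
Gars, chr6:55037961-55037988, plus strand, 30 bases before: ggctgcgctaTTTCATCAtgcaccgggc
Tars, chr15:11399656-11399683, minus strand, 15 bases before: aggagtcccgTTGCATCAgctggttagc
Iars, chr13:49682127-49682154, plus strand, base 8 of the transcript: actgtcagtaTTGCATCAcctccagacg
Trib3, chr2:152344029-152344056, minus strand, base 15 of the transcript: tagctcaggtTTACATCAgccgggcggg
Yars, chr4:129189896-129189923, plus strand, base 4 of the transcript: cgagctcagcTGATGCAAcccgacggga

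The letters TTGCATCA stood in the windows of Chac1, Nupr1, Iars and Tars alike, and Yars held the same core on the other strand. The start used for Yars lies inside the gene, whose annotated coordinates begin at 129189734. A match is a description of the letters, and no match says only that the core is not in this window. The window of Ddit3, the gene with the largest ratio among those past the count minimum, held no match, and its 250 bases before the start (chr10:127290543-127290792, plus strand) are shown beside those of Asns (chr6:7693210-7693459, minus strand), the gene with the next largest ratio, with the core of Asns in capitals.
Asns: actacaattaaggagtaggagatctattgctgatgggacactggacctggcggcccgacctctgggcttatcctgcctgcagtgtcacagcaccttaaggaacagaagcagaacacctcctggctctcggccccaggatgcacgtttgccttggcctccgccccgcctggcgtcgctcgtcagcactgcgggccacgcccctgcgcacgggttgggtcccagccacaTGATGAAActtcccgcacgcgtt
Ddit3: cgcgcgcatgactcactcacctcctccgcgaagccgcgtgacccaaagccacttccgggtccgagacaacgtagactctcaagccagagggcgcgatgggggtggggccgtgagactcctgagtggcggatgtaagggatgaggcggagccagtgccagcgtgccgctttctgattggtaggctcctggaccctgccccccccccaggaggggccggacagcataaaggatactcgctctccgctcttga

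None of the 32 genes with enough counts differed by 2-fold between the libraries. A gene was called higher or lower when the log2 ratio of TKO over WT counts, scaled with TMM factors, was at least 1 in size, its 95% counting interval excluded 0 and it had at least 20 counts in 1 library. By this rule 0 of the 32 genes that reached the count minimum were higher and 0 lower, against 2.43% higher and 2.30% lower of all 11525 genes that reached it. With a 1.5-fold threshold, 2 were higher, Ddit3 and Asns, and 0 were lower, against 5.13% and 5.52% of all genes. Asns lay close to that threshold and was under it with scaling by library totals or DESeq2 size factors and on FPKM, and both genes were under it once the dependence of the ratio on gene length was removed. Without a size threshold, 12 of the 32 had an interval above 0 and 5 an interval below it, where 21.8% and 22.7% of all genes did. Intervals narrow as counts rise, and these shares are not matched for depth. WT counts of the synthetases ran from 273 for Yars to 3393 for Nars, whereas all genes with at least 20 counts in 1 library enter the shares. The same shares of all genes, with the same limit, are the background for the interval counts of each list below. The median log2 ratio was 0.05 over the 20 synthetases, 0.19 over the 12 measured ATF4 stress genes and 0.00 over all genes.

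**Figure D1:**
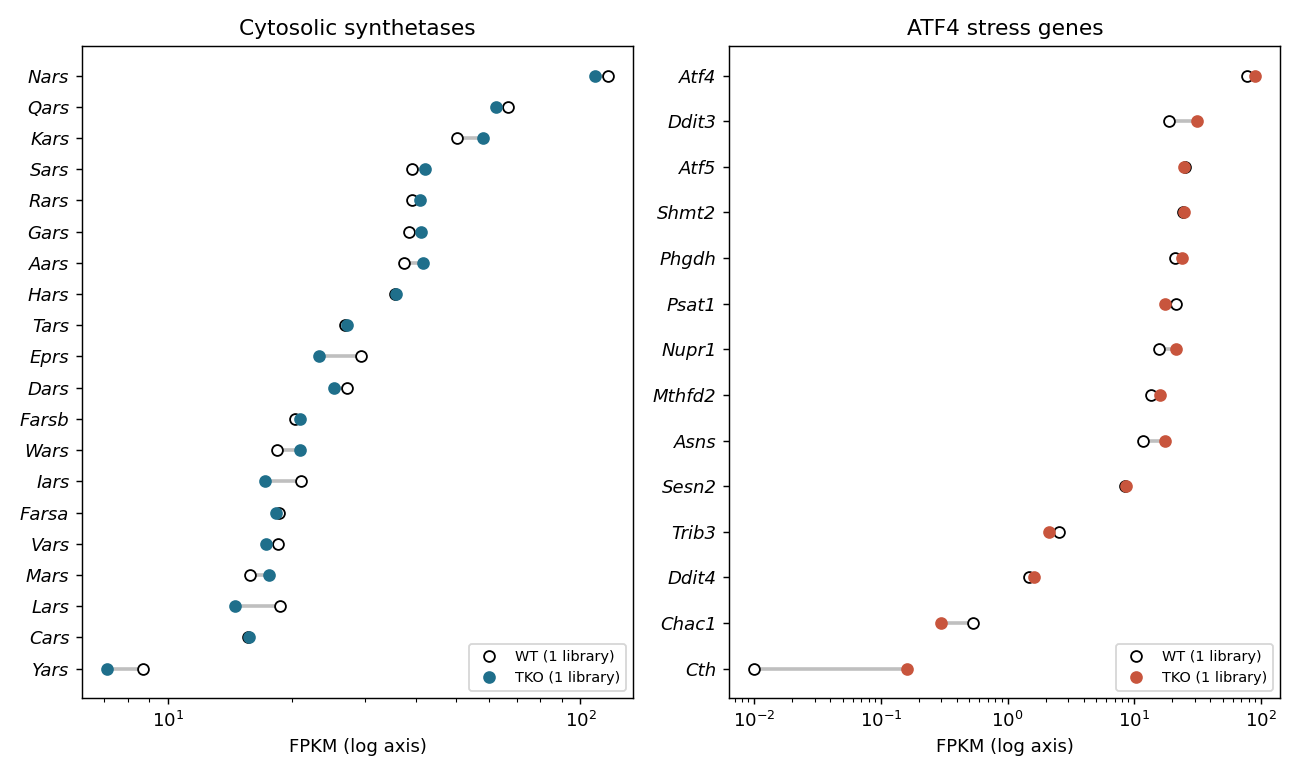
Level of each listed gene in FPKM on a log axis, with open circles for the WT library and filled circles for the TKO library, synthetases on the left and ATF4 stress genes on the right, ordered by mean level. Nars and Atf4 lead the panels, and Cth, with 0 counts in WT, is plotted at the 0.01 FPKM at which the deposited table lists genes without counts.

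Levels per gene length, in fragments per kilobase of gene and per unit of sequencing depth (FPKM), spanned a wide range among the synthetases. Nars, the asparaginyl-tRNA synthetase, had the highest level, with 117 FPKM in WT and 108 in TKO. Qars, which charges glutamine, had 66.6 and 62.6 FPKM. Kars, the lysyl enzyme, had 50.2 and 58.0 FPKM. Yars, the tyrosyl enzyme, had the lowest level, 8.70 and 7.12 FPKM. The other 16 lay between these, and the order of neighbours such as Sars, Rars, Gars and Aars (37.5 to 39.1 FPKM in WT) has no replicate behind it. Farsa and Farsb, which encode the subunits of a single phenylalanyl enzyme, stood close to each other, at 18.6 and 20.3 FPKM in WT and 18.2 and 20.9 in TKO. The summed level of the 20 synthetases was 662 FPKM in WT and 655 in TKO, a ratio of 0.989. The summed FPKM of all genes had a ratio of 1.07, so that sum is not a fixed baseline. On TMM-scaled counts, the scale of the ratios below, the summed synthetases were at a log2 ratio of 0.0042. Their median on that scale was 0.05, against 0.00 for all genes.

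Among the synthetases, 6 of 20 had an interval above 0, 4 an interval below it and 10 an interval that included it. Over all genes, 21.8% had an interval above 0 and 22.7% below it. Kars (chromosome 8, 111993439 to 112011354, GRCm38) had the largest positive ratio. It counted 1132 reads in WT against 1285 in TKO, 1.19-fold more, at a log2 ratio of 0.25 (95% interval 0.13 to 0.36). Wars, the tryptophanyl enzyme, whose gene is known to be inducible by interferon gamma, counted 567 reads in WT and 633 in TKO, at a log2 ratio of 0.22 (0.06 to 0.39). Mars, the methionyl enzyme, had 509 and 555 counts and a log2 ratio of 0.19 (0.01 to 0.37). Aars, the alanyl enzyme, had 1529 and 1658 counts (0.18, 0.08 to 0.28), Sars, the seryl enzyme, 1558 and 1644 (0.14, 0.04 to 0.24), and Gars, the glycyl enzyme, 998 and 1047 (0.13, 0.01 to 0.26). All 6 differences were under 1.2-fold. With scaling by library totals or by size factors from DESeq2, the intervals of Gars and Mars included 0.

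Of the 4 synthetases with an interval below 0, Lars, Eprs and Iars also have the greatest deposited gene lengths apart from Vars. Gene length here and below is this deposited value, not the genomic span. Farsb, for example, is given as 2104 bases, with coordinates 78417958 to 78488897 on chromosome 1. Lars (leucyl) counted 787 reads in WT against 600 in TKO, which is 1.25-fold lower, at a log2 ratio of -0.33 (-0.48 to -0.17). Eprs, which carries the glutamyl and prolyl activities in 1 protein (chromosome 1, 185361417 to 185428360), had 1567 and 1216 counts and a log2 ratio of -0.30 (-0.41 to -0.19). Iars (isoleucyl) had 1016 and 814 counts and a log2 ratio of -0.25 (-0.39 to -0.12). Nars had 3393 and 3087 counts, and its log2 ratio of -0.07 had an interval from -0.14 to -4.2e-05, which just misses 0. Yars, with 273 and 219 counts, had a log2 ratio of -0.25 (-0.52 to 0.01); its interval lay below 0 under both other scalings. Cars, Dars, Farsa, Farsb, Hars, Qars, Rars, Tars and Vars, the enzymes for cysteine, aspartate, phenylalanine, histidine, glutamine, arginine, threonine and valine, had log2 ratios from -0.07 to 0.10 with intervals that included 0. Vars lies within the MHC region (chromosome 17, 35000907 to 35016329) and had 857 and 784 counts, or -0.06 in log2 (-0.20 to 0.08).

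**Figure D2:**
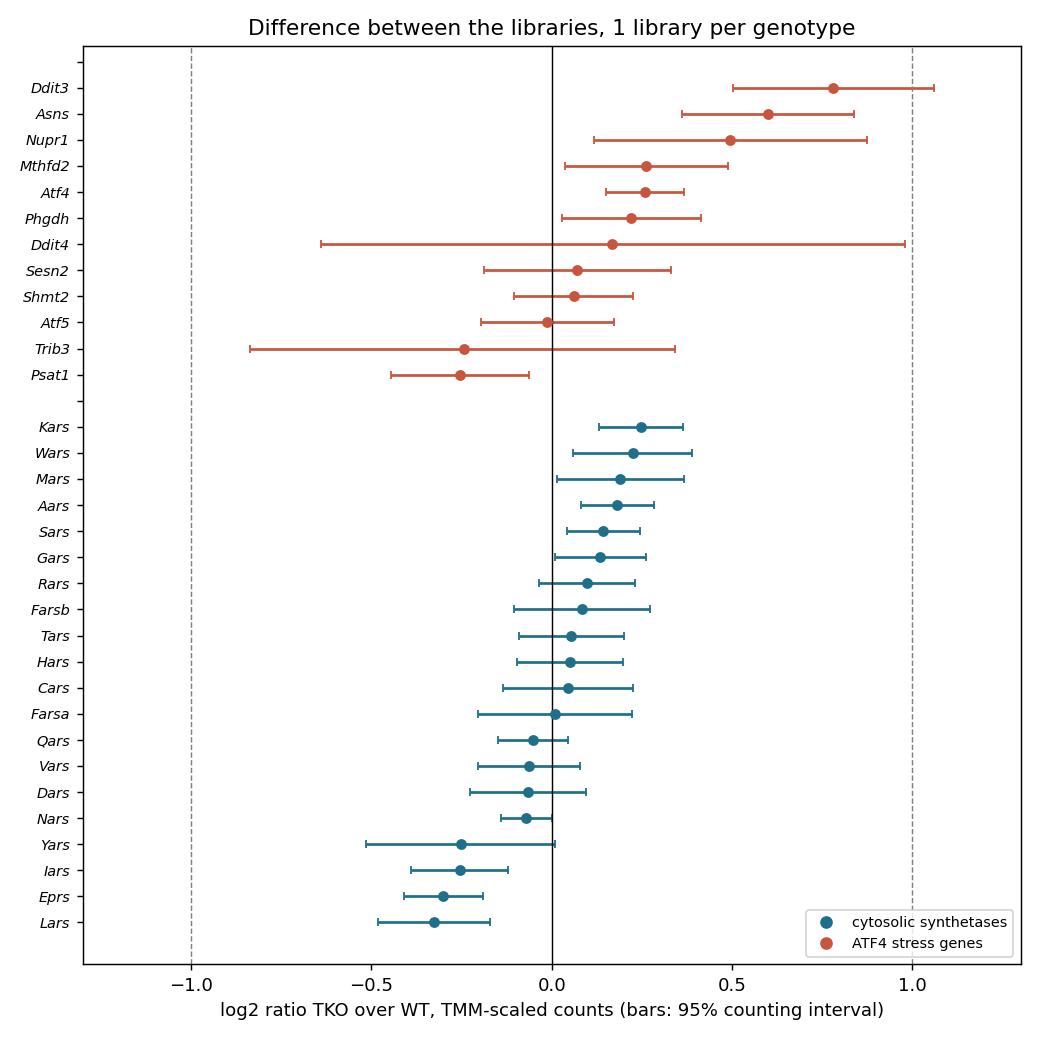
Log2 ratio of TKO over WT for the 32 genes with at least 20 counts in 1 library, with ATF4 stress genes at the top and synthetases below, bars for the 95% counting interval and dashed lines at a 2-fold difference. Ddit3 and Asns stand farthest to the right at 0.78 and 0.60, all 20 synthetases lie between -0.33 and 0.25, and no point reaches a dashed line.

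The synthetases were also compared by the complex they belong to and by class. In animal cells 8 of the 20 (Dars, Eprs, Iars, Kars, Lars, Mars, Qars and Rars) sit with scaffold proteins in a multisynthetase complex. Of these 8, 2 had an interval above 0 (Kars and Mars) and 3 below it (Eprs, Iars and Lars), where 21.8% and 22.7% of all genes did. Their median log2 ratio was -0.06. Enzymes of the same complex thus lay in both directions, as did all genes. Of the 12 outside the complex, 4 had an interval above 0 and 1 below it, with a median of 0.05. The class I enzymes, with a Rossmann-type catalytic fold, had a median of -0.06 over 10 genes, and the class II enzymes, with Eprs counted in class I only, 0.07 over 10. The median gene length was 2988 bases in class I and 2320 in class II, and with the length trend removed the medians were -0.04 and 0.0093. These are descriptions, and the difference between the subsets was not tested. Of the scaffold genes, Aimp1 had 414 and 490 counts (log2 ratio 0.31, 0.12 to 0.50), Eef1e1 80 and 86 (0.17) and Aimp2 160 and 141 (-0.12). Their median of 0.17 was -0.02 with the length trend removed.

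Of the 14 ATF4 stress genes, 12 reached the count minimum. Among these, 6 had an interval above 0, 1 an interval below it and 5 an interval that included it. The shares over all genes were 21.8% above 0 and 22.7% below it. With the length trend removed, Asns, Atf4 and Ddit3 kept an interval above 0, and Nupr1, Mthfd2 and Phgdh did not. The transcription factors are given first. Atf4 itself (chromosome 15, 80255184 to 80257545) had the highest level of the group, 77.8 FPKM in WT and 90.5 in TKO, from 1317 and 1506 counts, with log2 ratio 0.26 (0.15 to 0.37). Ddit3 (chromosome 10, 127290793 to 127296291), which encodes the factor CHOP of prolonged stress, rested on 175 counts in the WT library and 287 in the TKO library, or 18.9 and 31.3 FPKM. It was 1.72-fold higher in TKO (1.42 to 2.08), a log2 ratio of 0.78 (0.50 to 1.06), the largest among the 32 genes. Nupr1, a small stress-induced chromatin protein, had 104 and 140 counts, 1.41-fold more, with a log2 ratio of 0.49 (0.12 to 0.87). Atf5, a relative of ATF4, had 497 and 471 counts, and its log2 ratio of -0.01 (-0.20 to 0.17) had an interval that included 0.

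Genes that restrain growth or translation after stress differed little or were barely detected. Sesn2, which encodes a leucine sensor that inhibits mTORC1, had 247 and 248 counts, or 8.46 and 8.66 FPKM, with log2 ratio 0.07 (-0.19 to 0.33). Trib3, a pseudokinase induced through ATF4 and CHOP, was at 57 and 46 counts, with log2 ratio -0.24 (-0.84 to 0.34). Ddit4, the mTORC1 inhibitor REDD1, had 27 and 29 counts (0.17, -0.64 to 0.98). Chac1, a glutathione-degrading enzyme that is a sensitive target of this pathway, had 9 and 5 counts, under the count minimum, and its log2 ratio of -0.78 had an interval from -2.71 to 0.95. The counting intervals of Ddit4 and Chac1 included a 1.5-fold difference in either direction, and that of Trib3 included it only toward lower levels in TKO. The interval of Sesn2 excluded 1.5-fold in both directions.

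The enzymes of amino acid and one-carbon metabolism were led by Asns. Asns (chromosome 6, 7675165 to 7693209), asparagine synthetase, rested on 246 and 356 counts, or 11.8 and 17.4 FPKM, 1.51-fold more (1.28 to 1.79) and a log2 ratio of 0.60 (0.36 to 0.84). Mthfd2, a mitochondrial folate enzyme, had 307 and 352 counts (0.26, 0.04 to 0.49). Phgdh, the first enzyme of serine synthesis, had 423 and 471 counts and a log2 ratio of 0.22 (0.03 to 0.41). Its interval included 0 when the libraries were scaled by their totals. Psat1, the next enzyme of the same pathway, went the other way, with 509 and 408 counts, 1.19-fold lower and a log2 ratio of -0.25 (-0.44 to -0.06). Shmt2, which passes the carbon of serine to folate in mitochondria, had 606 and 604 counts (0.06, -0.10 to 0.23). Cth, the cystathionine lyase that makes cysteine, was at 0 counts in WT and 3 in TKO; a count of 0 allows up to 3, so no fold is given.

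The counting interval of Ddit3, from 0.50, lay above those of all 20 synthetases, of which the highest, that of Wars, ended at 0.39. The interval of Asns, from 0.36, overlapped the upper end of those of Wars, Mars and Kars. Among the genes with a promoter window in use and enough counts, the 7 with the element core had log2 ratios from -0.25 to 0.60 and a median of 0.05, and the 17 without it had ratios from -0.30 to 0.78 and a median of 0.08. Elements bound downstream of interferon were searched in the same windows. The core of the interferon-stimulated response element, GAAA then any pair of bases then GAAA, was found in 1 of 25 genes (Qars) and in 3.44% of all windows. The gamma-activated site TTCNNNGAA, which reads the same on both strands, was found in 3 of 25 (Kars, Shmt2 and Nupr1) and in 8.30% of all windows. In Nupr1 the gamma-activated site and the ATF element core did not overlap. The table held no window for Wars.

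Gene length, as deposited and not as genomic span, moved with the ratio over all genes as well as over the listed ones. Over the 11525 genes, Pearson's r between log2 length and log2 ratio was -0.31 and Spearman's rho -0.45, while over the 20 synthetases r was -0.48 and rho -0.37. Over the 12 ATF4 stress genes past the count minimum r was -0.65 and rho -0.56. Over all 32 listed genes past it r was -0.66 and rho -0.52. These correlations are across genes of the same 2 libraries, and genes are not independent replicates. The 6 synthetases of at least 3500 bases (Aars, Eprs, Iars, Lars, Sars and Vars) had a median log2 ratio of -0.16, against -0.16 for all 4276 genes of that length. The 7 under 2500 bases had a median of 0.08, against 0.14 for all 4749 such genes. Within the long group, Aars and Sars were above 0 and the other 4 below it.

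With the trend of the ratio with length removed, the median log2 ratio was 0.01 over the synthetases and 0.08 over the ATF4 stress genes. Ddit3, which at a deposited length of 881 bases is among the shortest listed genes, was then at 0.57 and Asns at 0.50. Eprs was at -0.16, Iars at -0.15 and Lars at -0.27. Of the 12 genes with an interval above 0, 8 remained so (Aars, Asns, Atf4, Ddit3, Kars, Mars, Sars and Wars), while Gars, Mthfd2, Nupr1 and Phgdh did not. All 5 with an interval below 0 remained so, and Qars and Yars joined them. Atf4 was at 0.13, Nupr1 at 0.25 and Aars at 0.23. What part of the differences comes from the length trend was not tested further.

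**Figure D3:**
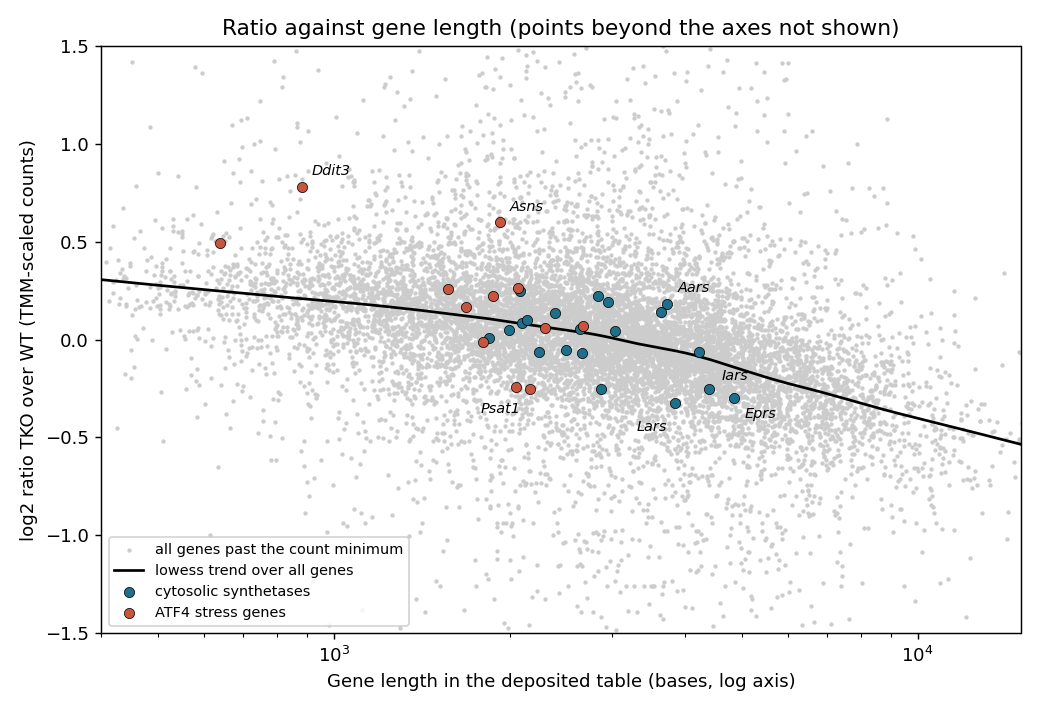
Log2 ratio of TKO over WT against the deposited gene length in bases, on a log axis. Grey points are all genes with at least 20 counts in 1 library, and the black lowess line is their trend. Blue points are synthetases and red points ATF4 stress genes. The trend falls with length; Ddit3 and Asns lie above it by 0.57 and 0.50, and Lars and Psat1 lie below it by 0.27 and 0.33.

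The genes upstream of ATF4 were described next. The list held 16 measured genes, for eIF2, its exchange factor eIF2B, its kinases and its phosphatase subunits, together with Gcn1l1 and Impact. Of these 16, 0 passed 1.5-fold, against 5.13% higher and 5.52% lower of all genes. By interval, 6 lay above 0 and 4 below it, against 21.8% and 22.7% of all genes. The median log2 ratio was 0.05. Gcn1l1, among those below 0 and named after its values were seen, was at -0.38 (-0.52 to -0.23). With the length trend removed Gcn1l1 was at -0.03. Eif2ak2, the double-stranded RNA kinase PKR and itself an interferon-stimulated gene, counted 1131 reads in WT against 1516 in TKO, or 1.40-fold more (log2 ratio 0.49, 0.38 to 0.60). The other kinases are named here after their values were seen. Eif2ak3, the kinase PERK of the endoplasmic reticulum, had a log2 ratio of -0.39 (-0.56 to -0.22), Eif2ak4, the amino acid sensor GCN2, -0.30 (-0.53 to -0.07) and Eif2ak1, the haem-regulated kinase, 0.08 (-0.02 to 0.18). With the length trend removed these were -0.27, -0.13 and 0.05, and Eif2ak2 was at 0.58. Ppp1r15a, the stress-induced phosphatase subunit GADD34 and an ATF4 target, also named after its values were seen, had 297 and 373 counts (0.39, 0.17 to 0.62). Eif2s3x, a subunit of eIF2 and the most abundant gene of the list, had 2611 and 2124 counts (-0.23).

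Other published targets of ATF4 went in both directions. Of 28 listed, 22 reached the count minimum, 9 lay above 0 and 13 below it, and the median log2 ratio was -0.05. By interval the balance was the other way, with 7 above 0 and 5 below it. With the length trend removed, 11 lay above 0 and 11 below it, with a median of 0.0051. Aldh1l2, a mitochondrial folate enzyme, was the only 1 past 2-fold, with 46 and 18 counts, 2.44-fold lower in TKO (log2 ratio -1.29, -2.16 to -0.47). Slc7a5, a transporter of large neutral amino acids, had 117 and 178 counts, 1.59-fold more (0.67, 0.33 to 1.02). Hmox1, haem oxygenase, was the most abundant, with 311 FPKM in WT and 209 in TKO (log2 ratio -0.54, -0.60 to -0.48), and it is also a target of NRF2. Among 11 partner factors of ATF4, Fos was 2.16-fold lower (560 and 248 counts, interval 1.85 to 2.52). Batf was 2.09-fold higher (23 and 46 counts, interval 1.24 to 3.62). Over all genes, 2.43% were higher and 2.30% lower by 2-fold. With the length trend removed, the log2 ratio was -1.19 for Fos and 0.86 for Batf, the latter under 2-fold. Cebpa, with the highest level, was at -0.21. The further serine, glycine and folate enzymes had 3 of 12 measured genes with an interval above 0 and 2 below it, with a median of -0.03. There Mtr, methionine synthase, had 646 and 438 counts (-0.50) and Gcsh, the most abundant, 414 and 449 (0.18).

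Mitochondrial synthetases, which charge the tRNAs of the mitochondrial genome, had 0 of 20 measured genes past 1.5-fold, against 5.13% higher and 5.52% lower of all genes. By interval, 1 lay above 0 and 2 below it, against 21.8% and 22.7% of all genes, with a median log2 ratio of 0.03. Lars2 had 249 and 163 counts, with log2 ratio -0.55 (-0.84 to -0.26), and Iars2, the most abundant, 866 and 799 counts (-0.05, -0.19 to 0.09). The 8 synthetase-like and editing genes had a median of 0.14, with Tarsl2 at -0.33 (-0.71 to 0.04) and Aarsd1, the most abundant, at 0.11. The elongation factor genes had a median of -0.01 over 9, with Eef1a1 at -0.00 and Eef2k, the kinase that slows elongation, at -0.45 (-0.75 to -0.15), or -0.20 with the length trend removed. Genes of mTORC1 and its amino acid sensors had a median of -0.18 over 21, or -0.08 with that trend removed, with Rptor at -0.57 (-0.70 to -0.44) and -0.29 respectively, and Rragc, the most abundant, at 0.14.

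Genes of the ATF6 and XBP1 branches of the unfolded protein response, the branches that run beside the PERK and ATF4 branch, lay mostly above 0. The list holds chaperones as well as sensors and degradation factors. Of 18 measured, 14 lay above 0 (77.8%, against 50.6% of all genes), 11 had an interval above 0 and 3 below it, against 21.8% and 22.7% of all genes. More counts give narrower intervals, and these interval shares are not matched for depth. WT counts in this list ran from 314 for Creld2 to 10919 for Calr, whereas all genes with at least 20 counts in 1 library enter the shares. The median log2 ratio was 0.18, or 0.15 with the length trend removed. Manf, a secreted stress-induced protein of the endoplasmic reticulum, counted 670 reads in WT against 1020 in TKO, 1.59-fold more (0.67, 0.53 to 0.82). Calr, the chaperone calreticulin, was the most abundant, with 518 FPKM in WT and 666 in TKO (0.40, 0.36 to 0.44). Ern1, the sensor IRE1, named after its values were seen, had 726 and 445 counts and was 1.56-fold lower (-0.64, -0.81 to -0.47). The other two genes with an interval below 0, also named after their values were seen, were the sensor Atf6 (-0.28) and Sel1l (-0.26), a factor of endoplasmic reticulum degradation.

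**Figure D4:**
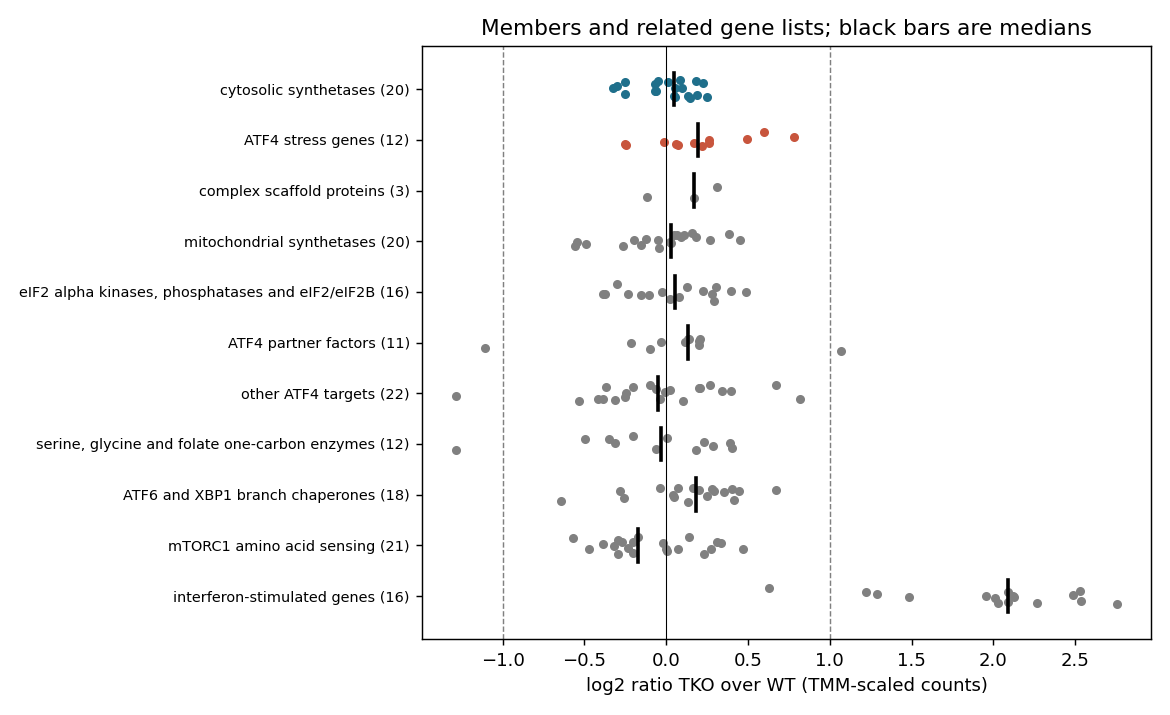
Log2 ratio of TKO over WT for the genes of each list that reached 20 counts in 1 library, one point per gene with the number of genes in parentheses, a black bar for the median and dashed lines at 2-fold. The synthetases and ATF4 stress genes stay inside the dashed lines, whereas the interferon-stimulated genes have a median of 2.09.

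Interferon-stimulated genes and markers of other cell types differed between the libraries. Of 16 interferon-stimulated genes 15 were higher by 2-fold, with a summed level of 267 FPKM in WT and 1024 in TKO. Of 12 fibroblast and stroma markers, 11 reached the count minimum, 9 were lower by 2-fold and none was at 0 counts, and their summed level was 118 FPKM in WT and 33.7 in TKO. Of 9 dendritic cell markers, 6 reached the count minimum, 4 were higher by 2-fold and none was at 0. Their summed level was 99.1 FPKM in WT and 121 in TKO, of which Irf8, which is also expressed in macrophages, made up 81.1 and 77.8, and the other 8 summed to 17.99 and 43.2 FPKM, a ratio of 2.40. None of 10 macrophage markers passed 2-fold (3791 and 3999 FPKM), and Cd68, the most abundant of these, had 1124 and 1440 FPKM. By interval, 3 of the 10 lay above 0 and 6 below it, against 21.8% and 22.7% of all genes. The median log2 ratio of these markers was -0.13, so most did not share the direction of Cd68. Neutrophil markers summed to 6.24 and 9.38 FPKM, with 1 of 8 in the table at 0 in WT and 2 in TKO. Only 2 of these reached the count minimum, and of them S100a8 was higher and Mmp9 lower by 2-fold. Lymphoid markers summed to 4.62 and 2.86 FPKM, with 3 of 8 at 0 in WT and none in TKO. Of the 3 that reached the count minimum, Ebf1 and Cd4 were lower by 2-fold. In bulk RNA, fewer cells of a type and less RNA per cell cannot be told apart. The part of these differences in the ratios of the listed genes was not tested.

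All 34 listed genes had counts that were whole at the 2 decimals deposited, with a tolerance of 0, in both libraries, where 21.3% of WT and 21.1% of TKO values over all genes were not whole. In the RefSeq annotation 8 of the 34 overlap another coding gene. Ddit3 overlaps Mbd6 by 77 bases and Mars by 71 bases, and the sources used here do not say that counting used strand, so reads from these stretches cannot be assigned with certainty. Mbd6 had 1162 and 1244 counts (log2 ratio 0.16, 0.05 to 0.28), and Mars 0.19, both below the 0.78 of Ddit3. The longest overlap was 3974 bases, between Aars and Ddx19b, which had 336 and 263 counts and was at a log2 ratio of -0.29. Farsb overlaps Sgpp2 by 2332 bases, with 14 counts of Sgpp2 in each library.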

How the data were processed

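Polyadenylated RNA of unstimulated macrophages, grown for 5 days with 10% L929 supernatant per the labels' protocols, was sequenced as 1 library per genotype. The submitters' processing notes name HISAT2 2.0.4, Bowtie2 2.2.5, RSEM 1.2.12 and mm10, without roles; for annotation, filters and counting strand, "not given in the sources used here" applies. Deposited expected counts, 10877897 for WT and 10656431 for TKO after rounding, were scaled with TMM factors (edgeR 4.0.16, R 4.3.3; 1.01 and 0.988). FPKM, per the file headers, lists genes without counts at 0.01. In the deposited table the log2 ratio is that of the FPKM columns. The authors' p-value and FDR score, of which 713 exceed 1, were not used.

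Intervals are exact conditional binomial (Clopper-Pearson) intervals at 95%, and a count of 0 was set to 3 counts in medians. No molecular identifiers are described, so intervals cover counting error only. Genes needed 20 counts in 1 library. The intervals and the size rule were tested on simulated data with counting error only, which do not bear on the spread between cultures. Lowess (span 0.3, statsmodels 0.14.6) gave the length trend. Alternatives were other scalings, log2 FPKM with and without 1 added, count minimums, thresholds of 1.5-fold and 4-fold, and length. No column of per-sample values went unmatched.

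All listed genes are named. Of the other lists, the rule names up to 4 genes past the size rule, the most abundant gene and the one with the largest ratio among genes with 100 counts; the marker and interferon lists are given as sums. The genes and lists were chosen with earlier results of these data known. Gene names and promoters came from RefSeq on GRCm38.p6, the assembly behind mm10, where all 34 genes matched by Entrez identifier. A promoter window is not reported here and was left out of the motif counts.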

Additional observations from a re-analysis of the deposited data

How the results depend on the processing

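No listed gene was higher or lower by 2-fold when scaled by DESeq2 1.42.0 or by totals, on FPKM with or without 1 added before the log2, without a count minimum (both libraries above 0), at a minimum of 100 counts, the 4-fold threshold or the removal of the length trend. At 1.5-fold 2 were higher, Ddit3 and Asns, also without a count minimum and at 100 counts. In alternatives chosen after the data were seen, 1 was higher, Ddit3, with library totals, with DESeq2 size factors and on FPKM with or without 1 added, where Asns was at 0.56, 0.58, 0.52 and 0.56 in log2. With the length trend removed 0 were higher, with Ddit3 at 0.57 and Asns at 0.50, and in each of these 0 were lower. The counts of genes with an interval above or below 0, followed through alternatives chosen after the data were seen, ranged from 8 to 12 and from 5 to 7. The median log2 ratio ranged from 0.0093 to 0.05 for the synthetases and from 0.08 to 0.24 for the ATF4 stress genes, and no gene whose interval excluded 0 changed direction. With the length trend removed, Eprs (-0.16) and Atf4 (0.13) moved outside their counting intervals. No paired analysis was possible because each genotype had 1 library, and no library could be left out. Depth limits Ddit4 and Chac1, whose intervals include a 1.5-fold difference in either direction.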
